A study of Homo sapiens with 6 samples.

Results

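The genes described here are DOK7, its relatives DOK1 to DOK6, and the 3 genes upstream of DOK7 at the neuromuscular synapse: agrin (AGRN), its receptor LRP4 and the kinase MUSK. They were taken as every probe set whose only annotated symbol is one of these names, which gave 22 probe sets for all 10 genes, of 19775 genes with a probe set of their own. The genes were chosen by the DOK7 intensities of this same comparison, in which DOK7 was already known to differ. Its difference is therefore given as a description, and nothing rests on its p-value.

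Expression was measured on Affymetrix arrays in MCF10A, an established human breast epithelial cell line that does not form tumours. There were 3 arrays of MCF10A cells with C/EBPbeta-2, one of the protein forms made from the CEBPB transcription factor gene, and 3 arrays of MCF10A cells alone, called control. Both groups carried no treatment and were grown with horse serum, insulin, hydrocortisone, epidermal growth factor, cholera toxin and antibiotics. The means of adding C/EBPbeta-2, and whether a group is 1 clone or a pool, are not stated in the labels. The labels name 3 biological replicates per group and do not say whether they were separate cultures, so all p-values measure only the spread between these arrays, which may be technical.

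Agrin is a large proteoglycan of basement membranes. At the neuromuscular synapse the form secreted by motor nerves binds LRP4 on the muscle surface, which switches on the receptor kinase MuSK. DOK7 binds MuSK from inside the cell and is needed for its full activity, and the complex gathers acetylcholine receptors under the nerve ending. The other DOK proteins share with DOK7 a membrane-binding PH domain and a phosphotyrosine-binding domain. They dock to other receptors, and DOK1 and DOK2 are best known as brakes on Ras signalling in blood cells. In epithelium, agrin and LRP4 are known outside the synapse, agrin as matrix and LRP4 as a modulator of Wnt signalling.

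DOK7 was the member that differed between the groups. It was read by 1 probe set, so no second reading of its difference is at hand. Where that probe set lies on the transcript was not looked at. On the log2 intensity scale used throughout, probe set 240633_at had values of 7.67, 7.80 and 7.84 on the C/EBPbeta-2 arrays, against 4.94, 4.39 and 5.39 on the control arrays. All 3 C/EBPbeta-2 arrays lay above all 3 control arrays, and they lay close together (SD 0.0892) while the control arrays were spread (SD 0.499). The difference in means was 2.86 on the log2 scale (SE 0.27), or 7.27-fold, which ranked 16 among the 19775 genes from the highest difference down. The control values sat near the middle of each array, whose medians were 4.46 to 4.56, and control replicate 2 was below its array's median. Without detection calls, the DOK7 level in control cells has no stated background and the fold is uncertain in size. In these bulk samples more DOK7 RNA per cell and more cells with DOK7 RNA cannot be told apart.

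In the fit across all genes (limma with Benjamini-Hochberg adjustment) DOK7 had an adjusted p of 0.0196, and in the fit across all probe sets 0.0393. It was the 1 member gene of 10 past the threshold of 0.05, where 0.273% of all genes passed in either direction and 0.091% passed as higher with C/EBPbeta-2. Counted by probe set it was 1 of 22, where 0.0659% of all probe sets passed. DOK7 was also the 1 member whose groups did not overlap, which held for 8.63% of all genes and 7.62% of all probe sets. Since the list was built on this result, these counts say nothing more about it. With C/EBPbeta-2 replicate 1, 2 or 3 left out, DOK7 was no longer past the gene threshold (limma adjusted p = 0.0931, 0.0717 and 0.113 in that order), nor with control replicate 1 left out (0.0806), while it was past it with control replicate 2 (0.0154) or control replicate 3 (0.0476) left out. The difference itself stayed between 2.60 and 3.10 when any single array was left out.

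**Figure D1:**
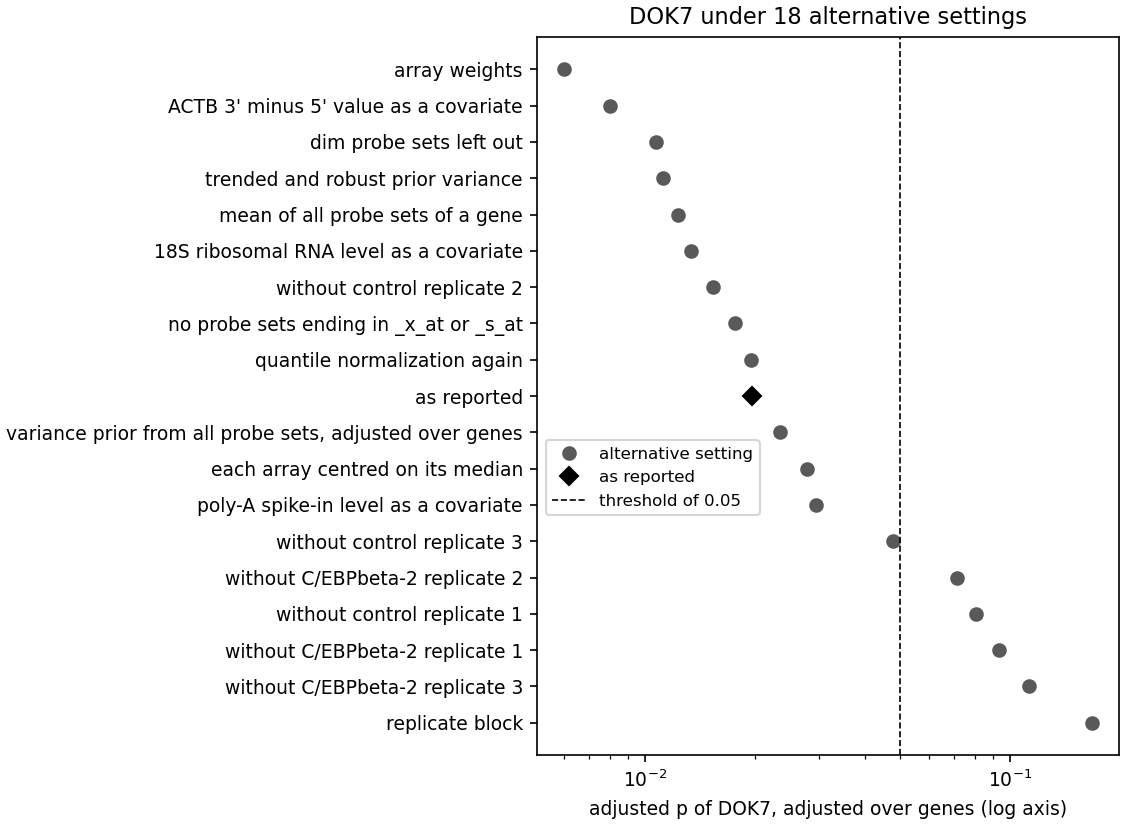
Adjusted p of DOK7 over all genes (x axis, log scale) under each setting of the analysis (y axis). Circles are alternatives, the diamond is the value as reported (0.0196) and the dashed line is 0.05. The 4 fits that leave out a C/EBPbeta-2 array or control replicate 1, and the fit with the replicate number as a block, lie to the right of the line.

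The DOK7 gene lies on chromosome 4, and the RefSeq promoter table lists 2 starts for it. The 250 bases before each start are shown because DOK7 is the member that carries the difference and because C/EBP proteins bind a known DNA motif. The motif was searched as TTGCNNAA on both strands, and capitals mark each match. The array does not tell which start was used.
DOK7 first start, GRCh38.p14, chr4:3463056-3463305, plus strand: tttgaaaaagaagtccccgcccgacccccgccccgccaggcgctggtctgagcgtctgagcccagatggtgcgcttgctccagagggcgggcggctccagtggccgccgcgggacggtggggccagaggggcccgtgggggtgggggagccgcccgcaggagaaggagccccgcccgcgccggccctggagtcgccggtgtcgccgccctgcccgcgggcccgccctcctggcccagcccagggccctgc
DOK7 second start, GRCh38.p14, chr4:3484294-3484543, plus strand: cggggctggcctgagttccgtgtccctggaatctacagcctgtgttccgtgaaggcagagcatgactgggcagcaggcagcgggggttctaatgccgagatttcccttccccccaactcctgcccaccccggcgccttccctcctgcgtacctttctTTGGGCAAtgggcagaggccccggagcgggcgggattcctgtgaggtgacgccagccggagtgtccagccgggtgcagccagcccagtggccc
The first sequence, with 78.0% G and C, held 0 matches. The second, with 66.4% G and C, held 1 match, TTGGGCAA. This motif occurred in 9.05% of the 35116 promoters of the table over the same length, and the stricter palindrome TTGCGCAA, found in 0.131% of them, was in neither DOK7 sequence. Among the 6 members with an entry in the table, MUSK was the other gene with a match. Counted by gene over all entries of a gene, TTGCNNAA occurred in 11.0% of the 27305 genes of the table. A match describes these letters only, and no binding was measured here.

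Of the protein-coding genes with a name of their own that stand on either side of DOK7 in the RefSeq order, LRPAP1 and HGFAC are the nearest. They were looked at after the DOK7 values were known. LRPAP1 encodes the chaperone of the LDL receptor family, to which LRP4 belongs, and HGFAC a protease that activates hepatocyte growth factor. The brightest LRPAP1 probe set, 201186_at, read 8.44, 8.03 and 8.39 on the C/EBPbeta-2 arrays, against 8.15, 8.60 and 8.13 on the control arrays, and the groups overlapped. A second LRPAP1 probe set, 242705_x_at, read 6.75, 7.29 and 7.10 on the C/EBPbeta-2 arrays, against 6.29, 5.95 and 6.27 on the control arrays. Its groups did not overlap, but its log2 difference of 0.88 (SE 0.20) was not called (adjusted p = 0.478), and the remaining LRPAP1 probe set differed by 0.14. HGFAC differed by -0.07 and was below the array median on all 6 arrays. The next genes out, RGS12 beyond HGFAC and ADRA2C beyond LRPAP1, were read too. At the brightest RGS12 probe set, 205823_at, the groups did not overlap, as in 8.63% of all genes. Its difference of 0.70 was not called (limma adjusted p = 0.936 in the gene fit). The other RGS12 probe sets differed by -0.22 to 0.41, and ADRA2C by -0.08.

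**Figure D2:**
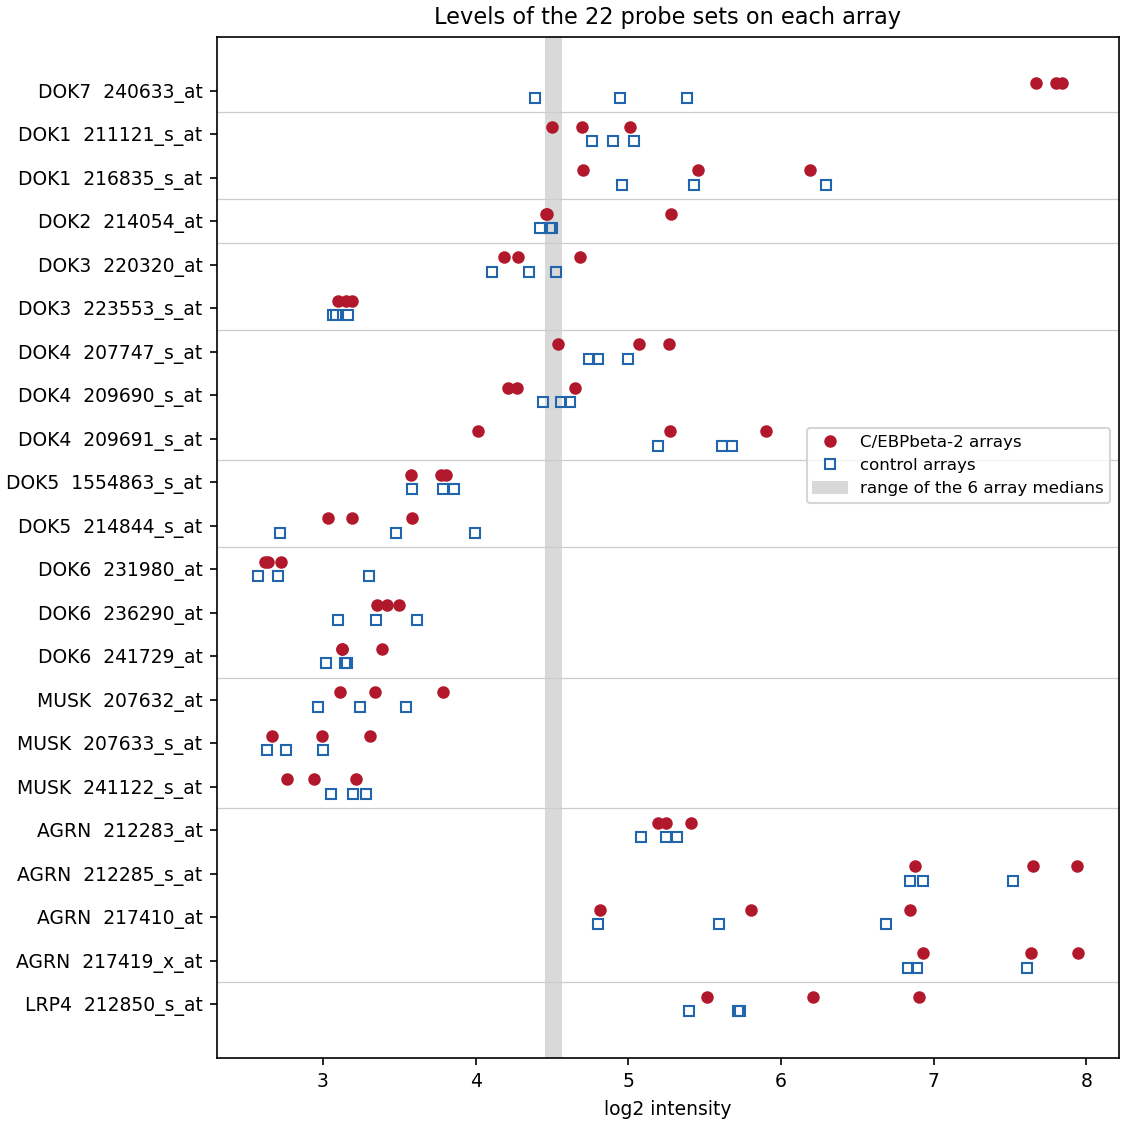
Log2 intensity (x axis) of each of the 22 probe sets (y axis), with filled circles for the 3 C/EBPbeta-2 arrays above open squares for the 3 control arrays. The grey band is the range of the 6 array medians, 4.46 to 4.56. DOK7 is the row whose circles, at 7.67 to 7.84, are all to the right of its squares.

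Across the other 9 genes no difference was called. Their log2 differences in the gene fit ran from -0.43 (DOK4) to 0.60 (LRP4), 6 positive and 3 negative, with a median of 0.07, beside a median of 0.01 over all 19775 genes. The median with DOK7 included was 0.11. At an unadjusted p under 0.05 there was 1 member gene, DOK7, where 5.17% of all genes passed, and the lowest adjusted p of the others was 1.00. By probe set, 13 of the other 21 differences were positive and 8 negative. Of the 22 probe sets, 9 were below the array median on all 6 arrays, 8 above it on all 6 and 5 on both sides.

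**Figure D3:**
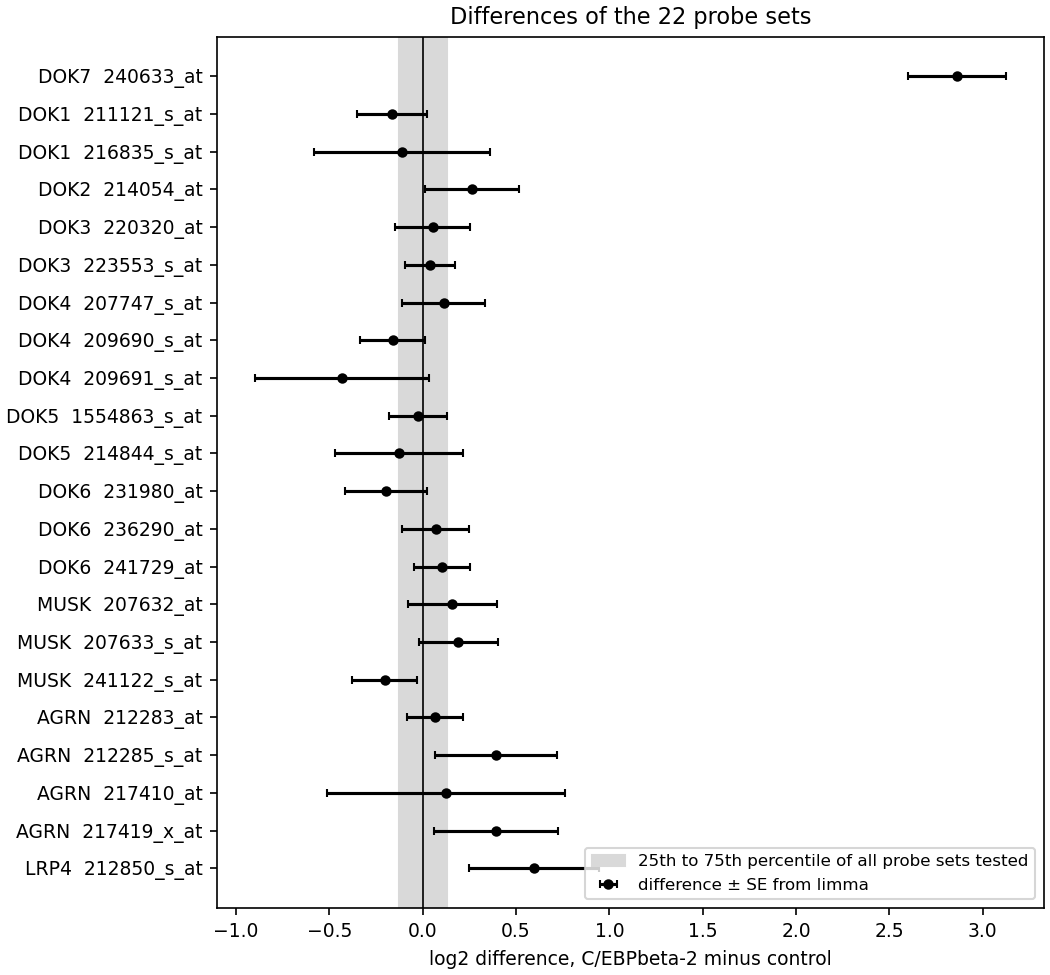
Log2 difference, C/EBPbeta-2 minus control (x axis), of each of the 22 probe sets (y axis), with bars for the standard error from limma. The grey band runs from the 25th to the 75th percentile of all 54613 probe sets tested. DOK7 stands at 2.86, and the other probe sets lie between -0.43 and 0.60.

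Agrin, the ligand, was read by 4 probe sets, all above the array median on every array. Its brightest, 217419_x_at, read 7.64, 6.93 and 7.94 on the C/EBPbeta-2 arrays, against 6.83, 7.61 and 6.89 on the control arrays. C/EBPbeta-2 replicates 1 and 3 and control replicate 2 were high, and the groups overlapped. The log2 difference was 0.39 (SE 0.33), and it was 0.17 without C/EBPbeta-2 replicate 3 and 0.68 without C/EBPbeta-2 replicate 2. Probe set 212285_s_at followed it within 0.0960 on every array and gave a difference of 0.39, so these 2 give nearly the same reading. Probe set 212283_at moved little, with 5.25, 5.41 and 5.19 on the C/EBPbeta-2 arrays, against 5.32, 5.25 and 5.08 in control cells. Its difference was 0.06.

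The fourth agrin probe set, 217410_at, varied most among the agrin probe sets, with a range of 2.04 over the 6 arrays. It read 6.84, 4.81 and 5.81 on the C/EBPbeta-2 arrays, against 4.80, 6.69 and 5.59 on the control arrays, and both groups covered nearly the same range. The difference of 0.13 (SE 0.64) became -0.38 without C/EBPbeta-2 replicate 1 and 0.63 without C/EBPbeta-2 replicate 2. The array's control probe sets for 18S ribosomal RNA averaged 12.19, 5.62 and 10.09 on the C/EBPbeta-2 arrays and 8.05, 12.17 and 10.33 on the control arrays. C/EBPbeta-2 replicate 1 and control replicate 2, with the highest 18S signal, had the highest agrin values at this probe set, and the 2 arrays with the lowest 18S signal had the lowest. The control probe sets for ACTB, 3' minus 5' signal, split the same arrays. They gave 0.18, 1.32 and 0.64 on the C/EBPbeta-2 arrays and 1.48, -0.04 and 0.44 on the control arrays. With the 18S level as a term in the fit, an alternative chosen after seeing the data, the difference was 0.43 at 217410_at and 0.52 at 217419_x_at, neither called (adjusted p = 0.985 and 0.884). With the ACTB value as the term instead, the differences were 0.24 and 0.44, neither called. The SE at 217410_at was 0.23 in both fits. Which of the 2 signals the agrin values follow was not tested.

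LRP4, the agrin receptor, was read by 1 probe set, 212850_s_at, and had the highest difference after DOK7. It read 5.52, 6.91 and 6.21 on the C/EBPbeta-2 arrays, against 5.73, 5.72 and 5.40 on the control arrays. C/EBPbeta-2 replicates 2 and 3 were above every control array and C/EBPbeta-2 replicate 1 was within the control range. The log2 difference was 0.60 (SE 0.35), or 1.51-fold, and it was 0.25 without C/EBPbeta-2 replicate 2 and 0.94 without C/EBPbeta-2 replicate 1. The highest LRP4 value fell on the array with the lowest 18S signal, the reverse of agrin 217410_at. With the 18S level as a term the difference was 0.46. The part of this signal in the differences of AGRN, LRP4 and the DOK relatives was not tested beyond that fit.

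**Figure D4:**
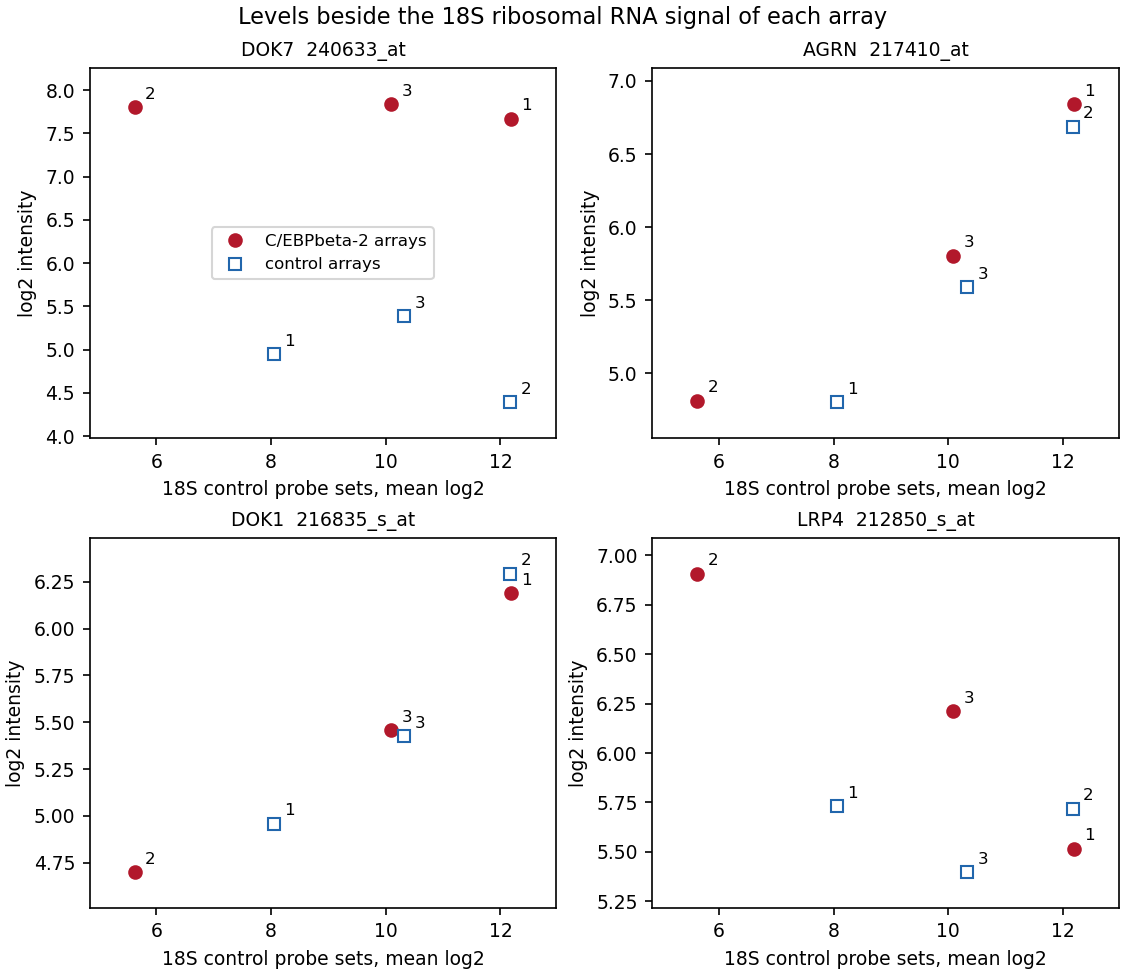
Log2 intensity (y axes) of DOK7, AGRN, DOK1 and LRP4 at 1 probe set each, against the mean log2 signal of the 18S control probe sets of the same array (x axes). Filled circles are C/EBPbeta-2 arrays and open squares control arrays, numbered by replicate. The DOK7 circles lie above its squares across the range of 18S signal, AGRN 217410_at and DOK1 216835_s_at are highest on the 2 arrays at the right, and LRP4 is highest on the array at the left.

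MUSK, the receptor kinase, was dim. All 3 of its probe sets were below the array median on all 6 arrays. The brightest, 207632_at, read 3.78, 3.11 and 3.34 on the C/EBPbeta-2 arrays and 3.24, 3.54 and 2.97 on the control arrays, and the groups overlapped. The 3 differences were 0.16, 0.19 and -0.20, so the probe sets did not share a direction, and a change in MUSK RNA was not detectable at this signal.

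Of the relatives known mainly from blood cells, DOK1 was read by 2 probe sets. Its brighter one, 216835_s_at, read 6.19, 4.70 and 5.46 on the C/EBPbeta-2 arrays, against 4.96, 6.29 and 5.43 on the control arrays. Here too C/EBPbeta-2 replicate 1 and control replicate 2 were high and the groups overlapped. The difference of -0.11 (SE 0.47) was 0.26 without C/EBPbeta-2 replicate 2 and -0.48 without C/EBPbeta-2 replicate 1, and the other DOK1 probe set gave -0.16. DOK2 read 5.28, 4.46 and 4.47 on the C/EBPbeta-2 arrays, against 4.50, 4.49 and 4.42 on the control arrays. Its difference of 0.26 rested on C/EBPbeta-2 replicate 1 and was -0.01 without that array. DOK3, an inhibitory adaptor of B cells and macrophages, read 4.19 to 4.68 on the C/EBPbeta-2 arrays and 4.11 to 4.53 on the control arrays at its brighter probe set, 220320_at. It differed by 0.05 there and by 0.04 at its other probe set, which was below the array median on all arrays.

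Of the relatives known from neurons, where they bind the receptor kinase RET, DOK4 had 3 probe sets near or above the array medians, and all probe sets of DOK5 and DOK6 were below them on all 6 arrays. DOK4 209691_s_at read 5.90, 4.02 and 5.27 on the C/EBPbeta-2 arrays, against 5.68, 5.62 and 5.19 on the control arrays. C/EBPbeta-2 replicate 2 stood low and the groups overlapped. The difference of -0.43 (SE 0.47) was 0.09 without that array, and the other DOK4 probe sets gave 0.11 and -0.16. DOK5 1554863_s_at read 3.57 to 3.81 on the C/EBPbeta-2 arrays, against 3.58 to 3.86 on the control arrays, and DOK6 236290_at read 3.36 to 3.50, against 3.10 to 3.62. In both the groups overlapped. The differences of DOK5 were -0.02 and -0.13, and those of DOK6 were -0.20, 0.07 and 0.10. The 1 array that read highest at DOK5 214844_s_at (3.99) and DOK6 231980_at (3.30) was control replicate 2.

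The highest values fell mostly on the same arrays. Of the 22 probe sets, 14 were highest on 1 of 2 arrays, with 9 at C/EBPbeta-2 replicate 1 and the other 5 at control replicate 2. These 2 arrays had the highest 18S signal and the lowest ACTB 3' minus 5' values. The same arrays held the highest value of 46.2% of all 54613 probe sets, the first of them 18.6% and the second 27.6%, and the members' count was not tested against that share. DOK7 had its highest value in C/EBPbeta-2 replicate 3 and its lowest in control replicate 2. Its difference was 2.86 within the 2 arrays of low poly-A spike-in signal (C/EBPbeta-2 replicate 2 and control replicate 1) and 2.87 within the other 4 arrays. For DOK4 209691_s_at the same values were -1.66 and 0.18, and for LRP4 1.18 and 0.30.

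The genes most like DOK7 were taken by Pearson's r over the 6 arrays, among 7079 genes whose level spanned at least 1 on the log2 scale. The 5 with the highest r were SMAD7, an inhibitor of TGF-beta signalling (0.994), the membrane protein TMEM158 (0.986), the cytokine IL1B (0.984), its decoy receptor IL1R2 (0.980) and the RNA-editing enzyme ADARB1 (0.977). The 5 with the most negative r were IFFO2 (-0.992), EVPLL (-0.991), the complement component C3 (-0.986), the serine protease FAP (-0.983) and C5orf46 (-0.982). A high r with DOK7, whose own groups stand far apart, all but fixes that the groups stand apart in these genes too. Limma called 5 of the 10 (TMEM158, IL1B, IL1R2, C3 and FAP) and did not call the other 5 (adjusted p 0.0517 to 0.233). With 6 arrays, 35 genes had an r over 0.95 and 32 an r under -0.95. SMAD7 had the same order as DOK7 in part: it read 6.49, 6.63 and 6.48 on the C/EBPbeta-2 arrays, against 5.35, 5.16 and 5.43 on the control arrays, with control replicate 2 lowest and control replicate 3 the highest control in both genes. Of the other members, 4 reached the span, with r of 0.56 for LRP4, 0.34 for AGRN, -0.20 for DOK1 and -0.40 for DOK4.

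Genes that work with these members at the synapse and inside the cell were taken from 5 lists, and limma called 0 of their 66 measured genes in either direction, with 3 (4.55%) at an unadjusted p under 0.05. Over all genes 0.273% were called and 5.17% were at an unadjusted p under 0.05. Of 15 measured genes of the neuromuscular synapse the groups did not overlap in 3 (NRG1, ERBB3 and CHRNA1), against 8.63% of all genes, with a median difference of -0.10. NRG1, the nerve-derived growth factor neuregulin, read 6.87, 8.59 and 7.01 on the C/EBPbeta-2 arrays, against 5.71, 5.11 and 5.47 on the control arrays. All its C/EBPbeta-2 arrays were above its control arrays, with a difference of 2.06 (SE 0.47) that was not called (adjusted p = 0.269). Its receptor ERBB3 read 6.56, 6.28 and 6.63 on the C/EBPbeta-2 arrays, against 6.28, 5.11 and 5.47 on the control arrays, so that C/EBPbeta-2 replicate 2 and control replicate 1 were level to 2 decimals. ERBB3 differed by 0.87 (adjusted p = 0.759) and the cytoskeletal protein UTRN by 0.60. The acetylcholine receptor subunits CHRNA1 (-0.11) and CHRND (-0.11) and the receptor-clustering protein RAPSN (0.02) were below the array median on all arrays.

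Of 14 measured genes of signalling downstream of MuSK and DOK7 the median difference was -0.08, with GSK3B at -0.53, FYN at -0.35 and APC at 0.27. Of 14 receptors and SH2 partners of the other DOK proteins it was 0.09, with INSR at -0.46, LYN at 0.41 and PDGFRB at 0.33. Of 7 IRS, FRS and GAB docking proteins, which like the DOK proteins carry signals from receptor kinases, it was 0.19, with IRS1 at 0.87, FRS3 at 0.52 and GAB3 at -0.43. Of 16 relatives and ligands of LRP4 and agrin proteases it was 0.12, with LRP5 at 0.58, LRP8 at 0.48 and LRP12 at 0.43. None of these was called.

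The markers of the line and of cells in which these members are best known were also read. KRT5, a basal keratin, was at 12.38 to 12.69 on the C/EBPbeta-2 arrays and 12.44 to 12.93 on the control arrays. Of 7 measured mammary epithelial markers limma called 1, CDH1, the adhesion protein E-cadherin, beside 0.273% of all genes. CDH1 read 8.75, 8.57 and 8.07 on the C/EBPbeta-2 arrays, against 10.58, 10.76 and 10.47 on the control arrays. It fell by 2.14 (SE 0.22, limma adjusted p = 0.0245). At an unadjusted p under 0.05 there were 2 of the 7, where 5.17% of all genes passed. The other mammary marker at an unadjusted p under 0.05 was LAMB3, a laminin subunit, with 11.09, 11.29 and 12.34 on the C/EBPbeta-2 arrays against 9.89, 11.16 and 10.17 on the control arrays. Its groups overlapped and its difference of 1.17 (SE 0.44) was not called (adjusted p = 0.833). Of 12 skeletal muscle markers 0 were called and 6 were below the array median on all arrays, among them CKM, ACTA1, MYF5 and MYH3, while the muscle regulator MYOD1 read 5.47 to 5.69 on the C/EBPbeta-2 arrays and 5.51 to 5.82 on the control arrays. The summed intensity of that list was 341.8 to 723.5 on the C/EBPbeta-2 arrays and 335.1 to 477.8 on the control arrays. The highest sum came from C/EBPbeta-2 replicate 3 and from 1 gene, the troponin TNNT1, whose intensity was 125, 91.8 and 468 on the C/EBPbeta-2 arrays against 93.4, 147 and 112 on the control arrays. Without TNNT1 the sum was 250.02 to 323.35 on the C/EBPbeta-2 arrays and 241.74 to 330.62 on the control arrays. Of 8 leukocyte markers 0 were called and 4 were below the array median on all arrays, PTPRC, SPI1, TYROBP and LCP2. The groups did not overlap in 2 of the 8, CD14 and LCP2, against 8.63% of all genes. The summed intensity of the 8 was 231.6 to 279.7 on the C/EBPbeta-2 arrays and 185.0 to 205.6 on the control arrays. These sums did not overlap, but CD14 was the brightest of the 8 on every array, and the sum without it was not taken. The 1 leukocyte marker at an unadjusted p under 0.05 was CD14, which epithelial cells can also express, with 7.28, 6.85 and 7.09 on the C/EBPbeta-2 arrays against 6.05, 5.98 and 6.45 on the control arrays (log2 difference 0.92, adjusted p = 0.266). Of 8 fibroblast markers 0 were called, 1 was at an unadjusted p under 0.05, and PDGFRA and LUM were below the array median on all arrays. That 1 was DCN, the matrix proteoglycan decorin, with 8.16, 7.38 and 7.11 on the C/EBPbeta-2 arrays against 11.76, 9.74 and 8.98 on the control arrays. Its groups did not overlap, and its difference of -2.61 (SE 0.69) was not called (adjusted p = 0.417). The summed intensity of the fibroblast list was 348.7 to 566.5 on the C/EBPbeta-2 arrays and 726.5 to 3675 on the control arrays. These sums did not overlap either, but DCN was the brightest gene of the list on every array. It was the 1 fibroblast marker of 8 whose groups did not overlap, and the median difference of the list was 0.05. The sum without DCN was not taken, and the part of the list in the DOK7 difference was not tested. Of 6 neuron and Schwann cell markers 0 were called and 0 were at an unadjusted p under 0.05, and STMN2 and S100B were below the array median on all arrays. Their summed intensity was 154.0 to 206.7 on the C/EBPbeta-2 arrays and 160.8 to 262.3 on the control arrays.

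CEBPB, the gene that gives the groups their name, read 10.29, 10.50 and 11.38 on the C/EBPbeta-2 arrays, against 11.27, 11.38 and 11.37 on the control arrays. It was not higher with C/EBPbeta-2 (log2 difference -0.62, adjusted p = 1.00). Where these probes lie on the transcript was not looked at, so CEBPB could not serve as a check of the labels.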

How the data were processed

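The 6 arrays were grouped by their labels, 3 with C/EBPbeta-2 and 3 control. The authors deposited an intensity for each probe set and array on a linear scale, and the submitters' processing notes name RMA with no version. Log2 was taken with no pseudocount. How background was handled is not stated beyond the name RMA, and it sets how far differences of dim probe sets are compressed. Of 54675 probe sets, 62 controls were set aside. The annotation gave 1 symbol for 41091, several for 1801 (not named) and none for 11721. The number of arrays limits the precision.

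A gene was read at its brightest probe set over all 6 arrays. Limma 3.58.1 in R 4.3.3 fitted C/EBPbeta-2 minus control (two-sided, Benjamini-Hochberg, threshold 0.05), once over 19775 genes and once over 54613 probe sets, and was tested on simulated data. Each SD is over 3 arrays. Summaries and plots used Python 3.11.15 and matplotlib 3.10.9. Promoters are RefSeq's (GRCh38.p14), and 6 of 10 members matched by symbol.

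The members, lists and tests were chosen with earlier results of these data known. The rule named the 10 members, the 3 genes of largest difference in each of 5 lists, any called gene, CEBPB, and the 5 genes most like and 5 most opposite to DOK7. Genes beside DOK7, markers and further list members were named after their values were seen. Listed genes without an unshared probe set are not analysed here.

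Alternatives left out each array, added a replicate block, changed normalization, filter, prior variance, weights or choice of probe set, or added spike-in, ACTB or 18S terms.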

Additional observations from a re-analysis of the deposited data

How the results depend on the processing

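DOK7 kept its direction under all alternatives run (log2 difference 2.60 to 3.10), and it was called in 13 of 18 alternatives with a test in the gene fit (adjusted p 0.00599 to 0.168). It was not called without C/EBPbeta-2 replicate 1, 2 or 3 or control replicate 1, and was called without control replicate 2 or 3. The differences were 2.60 to 3.10 over all 6 left-out arrays. All 6 of these fits hold fewer arrays, and why some lost the call was not tested. With the replicate block the difference was 2.86 and the adjusted p 0.168. The labels do not say whether same-numbered arrays were paired. Deviations of these arrays from the group means correlated at -0.45, -0.55 and 0.42 for replicates 1, 2 and 3. Deviations within a group of 3 arrays depend on one another, so such correlations cannot decide whether arrays were paired. C/EBPbeta-2 replicates 1 and 2 correlated best with control replicates 2 and 1 (0.64 and 0.66), and replicate 3 with control replicate 3. In the fit over probe sets DOK7 was called in 8 of 16 alternatives (adjusted p 0.0148 to 0.264). Of the other 21 probe sets, 0 were called under any alternative (lowest adjusted p = 0.799), and 12 changed sign under at least 1.

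The count of called genes, 54 as reported, was 8 to 75 with 1 array left out (15, 20 and 10 without C/EBPbeta-2 replicates 1, 2 and 3, and 9, 75 and 8 without control replicates 1, 2 and 3). It was 0 with the replicate block (limma, 763 at an unadjusted p under 0.05), 137 with array weights, 154 with the ACTB term and 114 with the 18S term. The count of called probe sets, 36 as reported, was 5 to 37 with 1 array left out and 0 with the replicate block (limma, 1701 at an unadjusted p under 0.05). It was 78 without dim probe sets, 67 with a trended and robust prior, 122 with array weights, 78 with the ACTB term and 74 with the 18S term. The causes were not tested. Estimating the prior variance over all probe sets, chosen after seeing the data, called 52 genes, 51 of them among the 54, with DOK7 at an adjusted p of 0.0235. The 18S term was chosen after seeing the data. Dim signal limits what can be said of MUSK, DOK5 and DOK6.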
